A study of Homo sapiens with 9 samples.

Results

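The 35 genes described here comprise 13 genes of SR proteins, 4 CLK kinase genes and 18 hnRNP genes. They are defined by their gene symbols, were chosen with earlier results of these data known, and were all found among the 23621 gene rows of the deposited table. HNRPDL is an older symbol of HNRNPDL and is kept as deposited. RNA was measured after 6 h of treatment in MOLT4, a human cell line of T-cell acute lymphoblastic leukemia, cultured in RPMI with serum. The 9 libraries fall into 3 groups of 3: libraries titled MI-389, libraries titled sunitinib, and vehicle (0.1% DMSO). Sunitinib inhibits kinases. MI-389 is a phthalimide conjugate, per the series design; phthalimide groups recruit the ubiquitin ligase receptor cereblon, and the series title concerns GSPT1, which acts in translation termination, as a further protein that such degraders hit. No group carries a stated genetic change, and the labels do not say whether the replicates were separate cultures, so each p reflects the spread between these libraries alone, which may be technical.

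The labels of the treated libraries are crossed. The source field of the libraries titled MI-389 names sunitinib at 1 µM, and that of the libraries titled sunitinib names MI-389 at 0.1 µM. The titles, the barcode list and the column names of the table go together, so the groups follow the titles. If the source field is right, each result below belongs to the other compound. The doses stand in the crossed field and were not matched, so compound and dose cannot be told apart between the treated groups.

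SR proteins bind exonic enhancers through RNA recognition motifs and recruit the spliceosome through domains rich in arginine and serine (RS domains). CLK kinases phosphorylate these RS domains and release SR proteins from nuclear speckles. hnRNP proteins coat nascent RNA, and many of them act on silencer elements, on RNA stability or on export. Many genes of these families limit their own messenger RNA by including exons with premature stop codons, which send the transcript to nonsense-mediated decay, and CLK1 and CLK4 transcripts are known to keep introns in the nucleus. In a GENCODE annotation of GRCh38, 28 of the 35 genes had a transcript annotated for nonsense-mediated decay, against 44.9% of 11064 tested genes with a protein-coding transcript. That count was 13 of 13 for SR proteins, 3 of 4 for CLK kinases and 12 of 18 for hnRNP genes. A transcript annotated with a retained intron was listed for 25 of the 35 (71.4%), against 58.7%. The table gives 1 value per gene, so productive transcripts and transcripts annotated for decay cannot be told apart in the values below.

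Promoters of 4 genes are shown, because CLK1 and CLK4 were higher than DMSO in both treated groups while SRSF1 and SRSF7 moved apart in the libraries titled MI-389. The sequences run 5′ to 3′ on the minus strand, from 250 bases before to 50 bases after the annotated start, and come from RefSeq with coordinates on GRCh38.p14, while the deposited values rest on hg19. Capitals mark TGACG, the core of the cyclic AMP response element, and GGGCGG, the GC box, on either strand, so that the complements read CGTCA and CCGCCC. The windows are chr2:200864609-200864908 for CLK1, chr5:178627001-178627300 for CLK4, chr17:58007197-58007496 for SRSF1 and chr2:38751445-38751744 for SRSF7.
CLK1: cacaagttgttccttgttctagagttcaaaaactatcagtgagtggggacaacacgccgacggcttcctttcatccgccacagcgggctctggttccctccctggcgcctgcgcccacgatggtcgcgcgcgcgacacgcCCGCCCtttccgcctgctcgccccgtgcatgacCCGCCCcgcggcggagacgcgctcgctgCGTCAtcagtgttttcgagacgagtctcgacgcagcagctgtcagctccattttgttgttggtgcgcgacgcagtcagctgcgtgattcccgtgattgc
CLK4: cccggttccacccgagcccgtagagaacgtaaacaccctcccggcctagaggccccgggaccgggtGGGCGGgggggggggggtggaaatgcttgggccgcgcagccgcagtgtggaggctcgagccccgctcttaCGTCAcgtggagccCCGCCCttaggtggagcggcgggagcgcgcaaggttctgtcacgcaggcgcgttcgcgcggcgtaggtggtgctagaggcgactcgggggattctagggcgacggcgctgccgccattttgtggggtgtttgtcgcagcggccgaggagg
SRSF1: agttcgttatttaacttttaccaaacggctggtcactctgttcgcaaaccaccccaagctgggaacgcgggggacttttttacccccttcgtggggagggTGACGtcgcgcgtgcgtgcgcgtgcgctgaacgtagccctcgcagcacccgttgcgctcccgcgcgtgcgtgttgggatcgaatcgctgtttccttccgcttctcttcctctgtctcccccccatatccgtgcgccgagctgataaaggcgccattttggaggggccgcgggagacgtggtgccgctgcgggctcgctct
SRSF7: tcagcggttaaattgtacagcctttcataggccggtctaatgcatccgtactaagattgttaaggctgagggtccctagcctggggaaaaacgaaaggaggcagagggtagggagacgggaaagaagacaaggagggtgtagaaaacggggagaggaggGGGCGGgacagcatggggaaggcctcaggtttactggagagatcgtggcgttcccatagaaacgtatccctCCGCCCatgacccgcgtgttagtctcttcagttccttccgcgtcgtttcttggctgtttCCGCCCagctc
With the start counted as 0, TGACG lay at −49 in CLK1, at −114 in CLK4 and at −150 in SRSF1. In CLK4 it overlapped an E-box (CACGTG) at −111. GC boxes lay at −110 and −77 in CLK1 and at −184 and −100 in CLK4. SRSF7 had GC boxes at −91, −20 and 39, and no TGACG in this window. Promoters were found for 32 of the 35 genes, and not for SRSF2, TRA2A and HNRNPA1. TGACG stood in 15 of the 32 (46.9%), against 35.7% of 9475 promoters of tested genes and 24.6% of 35116 promoters in all. GGGCGG stood in 21 of the 32 (65.6%), against 70.1% of the promoters of tested genes and 45.0% of all promoters. The E-box stood in 9 of the 32 (28.1%), against 10.7% of the promoters of tested genes and 7.26% of all, and these 9 include CLK2, CLK4, HNRNPD and HNRPDL. Neither the palindromic element TGACGTCA nor TGATGNAA, the composite element bound by ATF4, stood in any of the 32 windows, against 3.44% and 1.60% of the promoters of tested genes. The other motifs scanned follow, each against promoters of tested genes. They were TATAAA (15.6% against 5.33%), CCGGAA (15.6% against 31.7%), CCAAT (43.8% against 37.7%), GAANNTTC (9.38% against 4.61%) and TGANTCA (0% against 4.04%). None of these differences was tested.

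Values are FPKM, which divide fragments by transcript length and library size, as normalized further by the authors, so levels may be compared between genes. All 35 genes passed the filter, a mean of 1 FPKM or more, which left 12301 genes for testing. The table holds no read counts; the lowest value of any of the 35 genes in any library was 18.6 FPKM, far above the rows near 0.1 FPKM that hold undetected genes. DMSO replicate 1 stood apart from the other DMSO libraries. It was the lowest DMSO library for 32 of the 35 genes, with a median log2 difference of −0.24 from the mean of the others, and for 96.3% of the 1979 genes that averaged 100 FPKM or more (median −0.23). Counts of these 35 genes, of their families and of the other splicing lists against DMSO are therefore given with and without it. All 15 T-lineage markers reached 1 FPKM, against 2 of 6 B-cell, 0 of 6 myeloid and 1 of 7 epithelial and fibroblast markers. The summed T-lineage level was 3808 to 4052 FPKM in the libraries titled MI-389, 4298 to 4532 FPKM in those titled sunitinib and 4012 to 5014 FPKM in DMSO. The B-cell markers MS4A1, PAX5 and CD22 stood near 0.1 FPKM in each group.

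In DMSO, hnRNP transcripts were the most abundant, with a summed level of 12697 ± 1336 FPKM, followed by SR protein transcripts at 4427 ± 371 FPKM and CLK transcripts at 308 ± 21.9 FPKM (SD, n = 3). HNRNPA1, a silencer-binding protein, was the highest of all at 2526 ± 259 FPKM in DMSO. HNRNPA1 has 74 annotated pseudogenes, HNRNPA3 has 16 and HNRNPC has 9, so their reads may be split with near-identical copies. SRSF2 led the SR proteins at 867 ± 84.2 FPKM in DMSO, and SRSF8 was the lowest of them at 28.9 ± 3.27 FPKM in DMSO. Of the kinases, CLK1 stood highest at 133 ± 8.95 FPKM in DMSO and CLK4 lowest at 23.4 ± 1.57 FPKM. CLK2 at 77.9 ± 8.53 FPKM and CLK3 at 74.0 ± 5.88 FPKM lay between them and did not differ beyond their spread in DMSO.

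**Figure D1:**
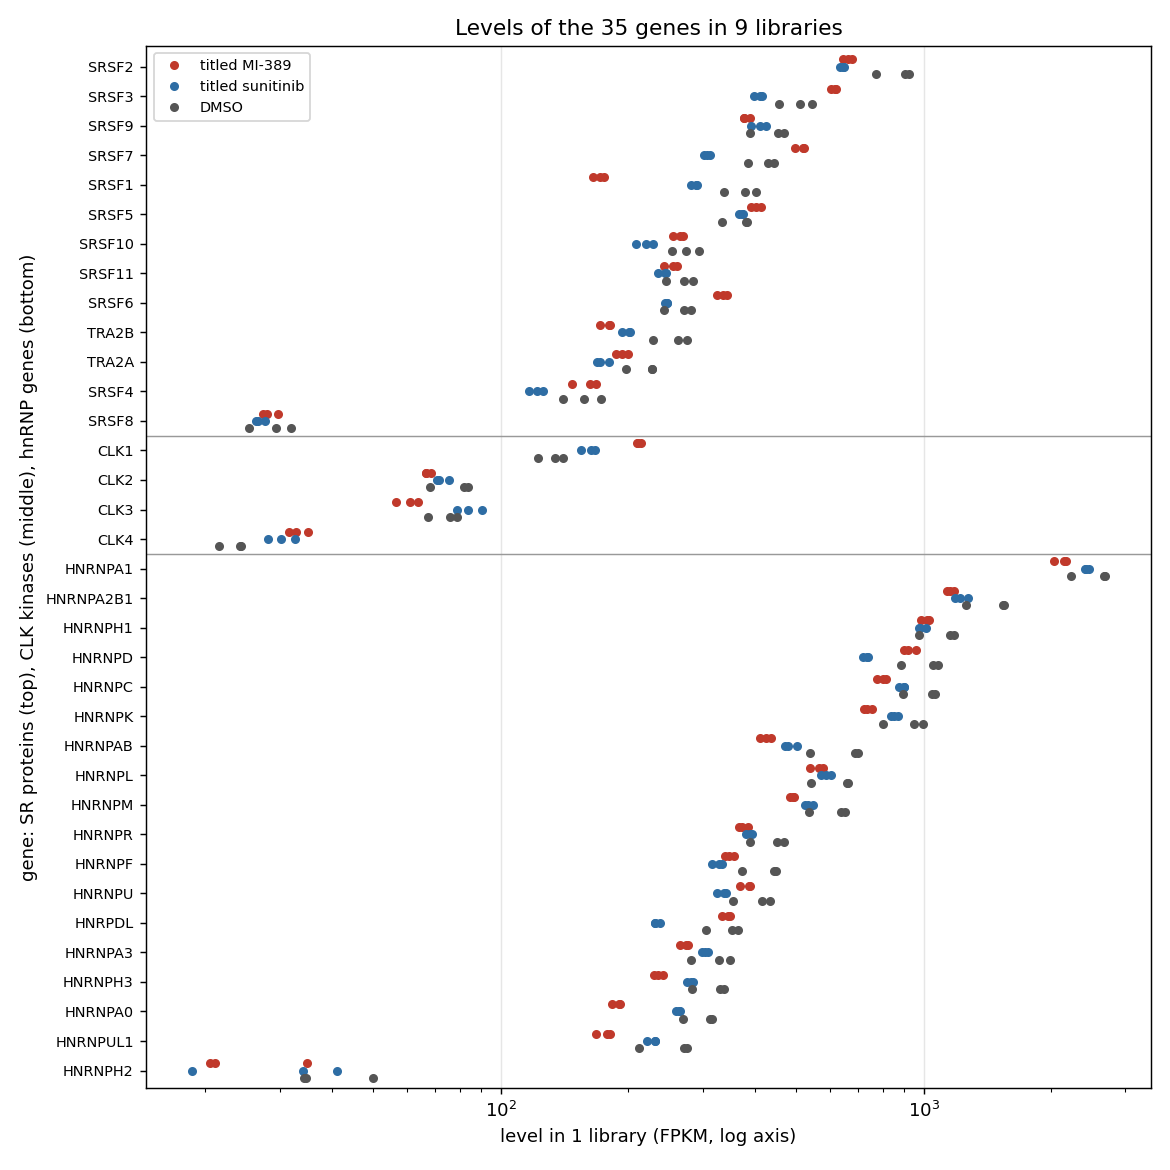
Level of each of the 35 genes (FPKM, log axis) in each of the 9 libraries, ordered within family by the level in DMSO; each point is 1 library. The SRSF1 points of the libraries titled MI-389 lie at 166 to 175 FPKM, below those titled sunitinib (282 to 291 FPKM) and DMSO (337 to 402 FPKM).

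In the libraries titled MI-389, 3 SR protein genes and 2 CLK genes rose against DMSO and 18 genes of the 3 families fell. CLK1, CLK4, SRSF6, SRSF7 and SRSF3 rose, by 1.22-fold to 1.60-fold. SRSF1, the founding member of the SR family, fell to 0.460 of its DMSO level. Of the hnRNP genes, 12 of 18 were lower on the deposited scale, but 7 of 18 were called higher and 4 lower under cyclic loess between libraries. Under cyclic loess 33.3% of all tested genes were called higher and 32.4% lower. On the deposited scale 28.5% of all tested genes were called higher and 28.3% lower. Among the 1979 genes averaging 100 FPKM or more, a bound chosen after the values were seen, 11.0% were called higher and 53.7% lower. The 5 of 35 called higher are a smaller share than that of all tested genes and near that of abundant genes, and the 18 of 35 called lower are near the share of abundant genes. The median log2 difference of the 35 genes was −0.20, against −0.23 for the abundant genes and −0.00 for all tested genes. Libraries did not overlap between the groups for 22 of the 35 genes, for 7408 of 12301 tested genes and for 1286 of 1979 abundant genes. Calls come from limma on log2(FPKM + 1) with Benjamini-Hochberg adjustment over 12301 genes, at an adjusted p under 0.05. Without DMSO replicate 1, 5 of the 35 genes were called higher and 24 lower, against 25.7% and 33.2% of all tested genes and 10.6% and 69.5% of abundant genes. By family these were 3 SR protein genes higher and 6 lower, 2 CLK genes higher and 2 lower, and 0 hnRNP genes higher and 16 lower.

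The 4 CLK kinases parted into pairs in the libraries titled MI-389 against DMSO. CLK1 had 214, 210.0 and 211 FPKM in the libraries titled MI-389, 164, 167 and 155 FPKM in those titled sunitinib, and 123, 140.3 and 135 FPKM in DMSO. CLK4 had 32.8, 31.6 and 34.99 FPKM in the libraries titled MI-389, 30.2, 28.2 and 32.6 FPKM in those titled sunitinib, and 24.3, 21.6 and 24.2 FPKM in DMSO. Both kinases stood above every DMSO library in all 6 treated libraries. Against DMSO, CLK1 rose in the libraries titled MI-389 by 0.67 ± 0.059 on the log2 scale (± SE, adjusted p = 1.3e-05) and CLK4 by 0.49 ± 0.072 (adjusted p = 0.000324). CLK3 had 63.7, 56.5 and 60.9 FPKM in the libraries titled MI-389, 78.7, 90.1 and 83.6 FPKM in those titled sunitinib, and 67.4, 75.8 and 78.7 FPKM in DMSO. CLK2 had 68.5, 66.6 and 66.6 FPKM in the libraries titled MI-389, 71.3, 70.7 and 75.3 FPKM in those titled sunitinib, and 68.0, 82.0 and 83.5 FPKM in DMSO. The CLK3 values of the libraries titled MI-389 lay below all others, while those of CLK2 overlapped DMSO. CLK3 fell by 0.29 ± 0.076 against DMSO (adjusted p = 0.00929). CLK2 fell by 0.20 ± 0.075 (adjusted p = 0.0415), a call lost under 9 of 17 alternatives. CLK2 overlaps HCN3, and CLK3 overlaps EDC3, on the opposite strand. Libraries were made without strand marks, so reads of these partners cannot be told apart. Such partners are named here and below only where their annotated symbol has a row among the deposited values. SRSF1, SRSF11, HNRNPA3, HNRNPAB, HNRNPD, HNRNPK and HNRNPM also overlap annotated genes on the opposite strand, which have no row under that symbol. CLK1 took 56.9% of the summed CLK level in the libraries titled MI-389, 46.4% in those titled sunitinib and 43.1% in DMSO.

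**Figure D2:**
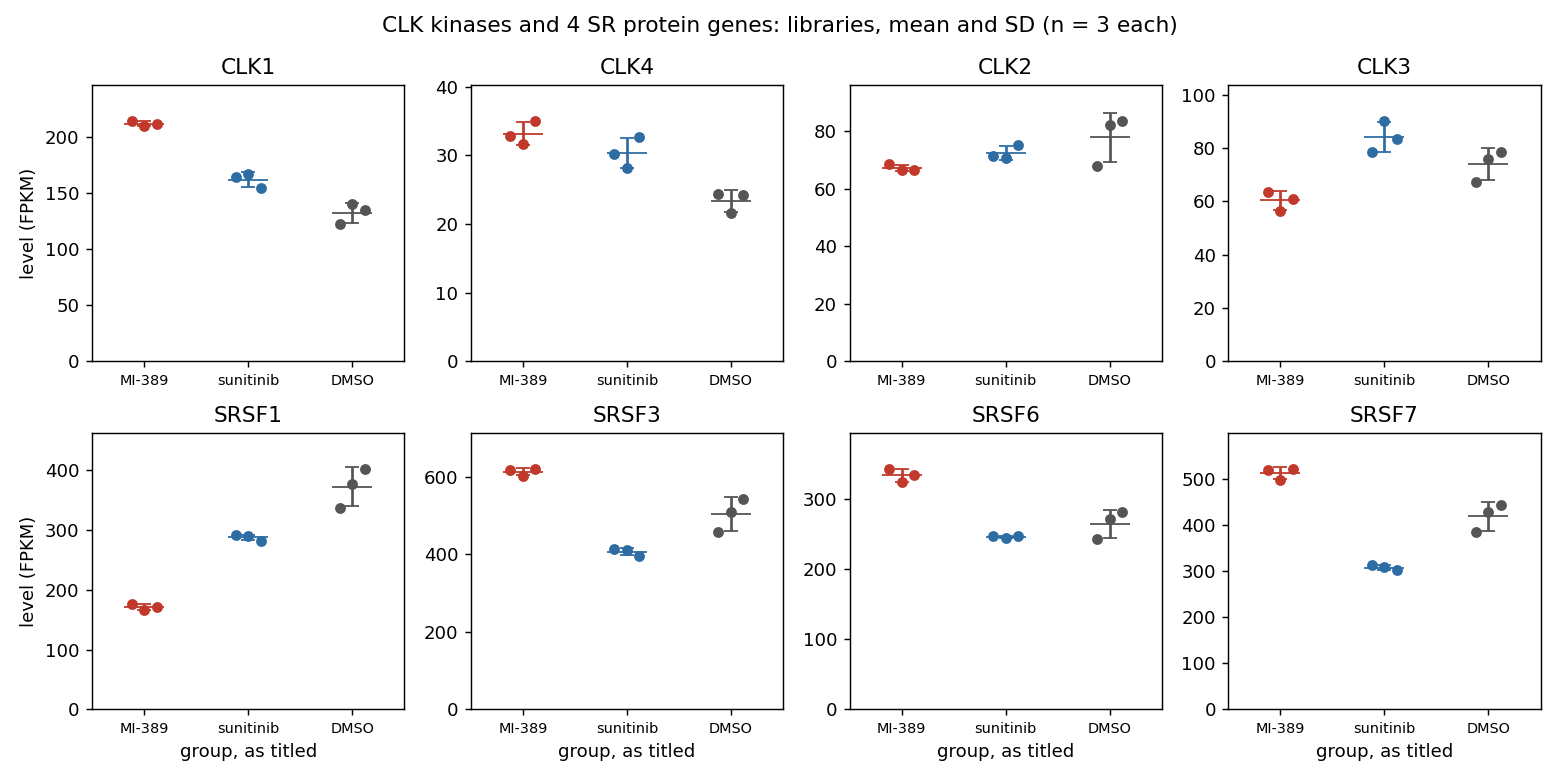
FPKM of the 4 CLK kinases and of SRSF1, SRSF3, SRSF6 and SRSF7 in each library; points are libraries, the long bar is the group mean and the error bars are the SD (n = 3 each). CLK1 averages 212 FPKM in the libraries titled MI-389, 162 FPKM in those titled sunitinib and 133 FPKM in DMSO, while SRSF1 averages 171 FPKM in the libraries titled MI-389, 287 FPKM in those titled sunitinib and 372 FPKM in DMSO.

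Among SR proteins the libraries titled MI-389 had 3 genes higher, 4 lower and 6 not called against DMSO on the deposited scale. Cyclic loess gave 8 higher and 3 lower, quantile normalization 7 and 3, and centring each library on its median 3 and 7. Of all tested genes these scalings called 33.3% and 32.4%, 30.2% and 35.7%, and 26.2% and 40.3%, in the same order. SRSF7, an SR protein with a zinc knuckle, had 518, 498 and 521 FPKM in the libraries titled MI-389, 312, 308 and 302 FPKM in those titled sunitinib, and 384, 428 and 444 FPKM in DMSO. SRSF3, the smallest classical SR protein and an adaptor for messenger RNA export, had 616, 602 and 619 FPKM in the libraries titled MI-389, 414, 409.6 and 396 FPKM in those titled sunitinib, and 456, 509 and 543 FPKM in DMSO. SRSF6 had 343, 324 and 336 FPKM in the libraries titled MI-389, 247, 245 and 247 FPKM in those titled sunitinib, and 243, 272 and 281 FPKM in DMSO. For these 3 genes the libraries titled MI-389 were the highest of the series, with no overlap. Their rises against DMSO were 0.29 ± 0.060 for SRSF7 (adjusted p = 0.00241), 0.29 ± 0.066 for SRSF3 (adjusted p = 0.00418) and 0.33 ± 0.060 for SRSF6 (adjusted p = 0.00107).

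SRSF1 moved the other way and furthest of the 35 genes. It had 175, 166 and 172 FPKM in the libraries titled MI-389, 291, 289 and 282 FPKM in those titled sunitinib, and 337, 377 and 402 FPKM in DMSO. The 3 groups did not overlap, and SRSF1 fell by 1.11 ± 0.065 in the libraries titled MI-389 against DMSO (adjusted p = 1.27e-06). TRA2B, a splicing activator related to the Drosophila transformer-2 protein, had 181, 172 and 181 FPKM in the libraries titled MI-389, 201, 202 and 194 FPKM in those titled sunitinib, and 229, 263 and 275 FPKM in DMSO. It fell by 0.52 ± 0.068 in the libraries titled MI-389 against DMSO (adjusted p = 0.00016). SRSF2 and SRSF9 were also called lower, by 0.39 and 0.19. The SRSF2 call held under all 17 alternatives, whereas that of SRSF9 held under 6 and turned to higher under cyclic loess, and SRSF2 overlaps MFSD11 and SRSF9 overlaps GATC on the opposite strand. SRSF4, SRSF5, SRSF8, SRSF10, SRSF11 and TRA2A were not called on the deposited scale, with differences between −0.16 and 0.14. Of these, SRSF4, SRSF5, SRSF10 and SRSF11 were called higher under both quantile normalization and cyclic loess.

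Within a library, ratios between genes are not moved by a scale factor of the library. SRSF7 over SRSF1 was 2.997 ± 0.041 in the libraries titled MI-389, 1.07 ± 0.0047 in those titled sunitinib and 1.13 ± 0.018 in DMSO (SD, n = 3 each). SRSF3 over SRSF1 was 3.59 ± 0.066 in the libraries titled MI-389, 1.42 ± 0.0092 in those titled sunitinib and 1.35 ± 0.0029 in DMSO. CLK1 over CLK3 was 3.52 ± 0.18 in the libraries titled MI-389, 1.93 ± 0.13 in those titled sunitinib and 1.79 ± 0.074 in DMSO. The other ratios computed follow in the same order of groups. SRSF6 over SRSF1 was 1.957 ± 0.0018, 0.859 ± 0.016 and 0.714 ± 0.011, and CLK1 over CLK2 was 3.15 ± 0.021, 2.24 ± 0.16 and 1.71 ± 0.097. HNRNPD over HNRNPA0 was 4.92 ± 0.11, 2.78 ± 0.0076 and 3.36 ± 0.066, and CLK4 over CLK3 was 0.550 ± 0.031, 0.362 ± 0.043 and 0.318 ± 0.039. All these pairs were chosen after the values were seen and carry no test. SRSF1 held 4.12% of the summed SR level in the libraries titled MI-389, against 7.87% in those titled sunitinib and 8.40% in DMSO.

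Of the hnRNP genes called lower, HNRNPA0 and HNRNPAB fell furthest. HNRNPA0, a protein that binds AU-rich elements, had 191, 184 and 189.9 FPKM in the libraries titled MI-389, 264, 265 and 259 FPKM in those titled sunitinib, and 269, 312 and 316 FPKM in DMSO. HNRNPAB, a relative of HNRNPD, had 423, 411 and 435 FPKM in the libraries titled MI-389, 477, 501 and 469 FPKM in those titled sunitinib, and 539.9, 698 and 689.9 FPKM in DMSO. For both genes every library titled MI-389 was below every other library. They fell by 0.66 ± 0.064 (HNRNPA0, adjusted p = 2.51e-05) and 0.59 ± 0.092 (HNRNPAB, adjusted p = 0.000452) against DMSO. HNRNPUL1, a relative of the scaffold protein HNRNPU, had 179, 168 and 181 FPKM in the libraries titled MI-389, 232, 232 and 222 FPKM in those titled sunitinib, and 212, 272 and 275 FPKM in DMSO. HNRNPH3, of the G-run binding HNRNPH and HNRNPF group, had 242, 231 and 235 FPKM in the libraries titled MI-389, 281, 285 and 276 FPKM in those titled sunitinib, and 283, 330.3 and 337 FPKM in DMSO. Again the libraries titled MI-389 were the lowest. HNRNPUL1 fell by 0.51 ± 0.092 (adjusted p = 0.00108) and HNRNPH3 by 0.42 ± 0.068 (adjusted p = 0.000564). HNRNPH3 overlaps PBLD and RUFY2, and HNRNPUL1 overlaps TGFB1, on the opposite strand.

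The other 8 hnRNP genes called lower were HNRNPA1, HNRNPA2B1, HNRNPA3, HNRNPC, HNRNPF, HNRNPK, HNRNPM and HNRNPR, which fell by 0.21 to 0.32 on the deposited scale. Of these 8, HNRNPA1 and HNRNPR were called higher under cyclic loess, and HNRNPA3, HNRNPA1 and HNRNPR kept their call under 8, 9 and 10 of the 17 alternatives. HNRNPA2B1 overlaps CBX3 and NFE2L3 on the opposite strand. HNRNPD, HNRPDL, HNRNPH1, HNRNPL and HNRNPU were not called, with differences between −0.14 and 0.01. HNRNPH2 ranged from 20.6 to 34.8 FPKM in the libraries titled MI-389, from 18.6 to 40.9 FPKM in those titled sunitinib and from 34.2 to 49.96 FPKM in DMSO. Its difference of −0.64 ± 0.290 had an adjusted p of 0.0868, the widest error of the 35 genes. In bulk RNA, fewer cells of a type and less RNA per cell cannot be told apart.

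**Figure D3:**
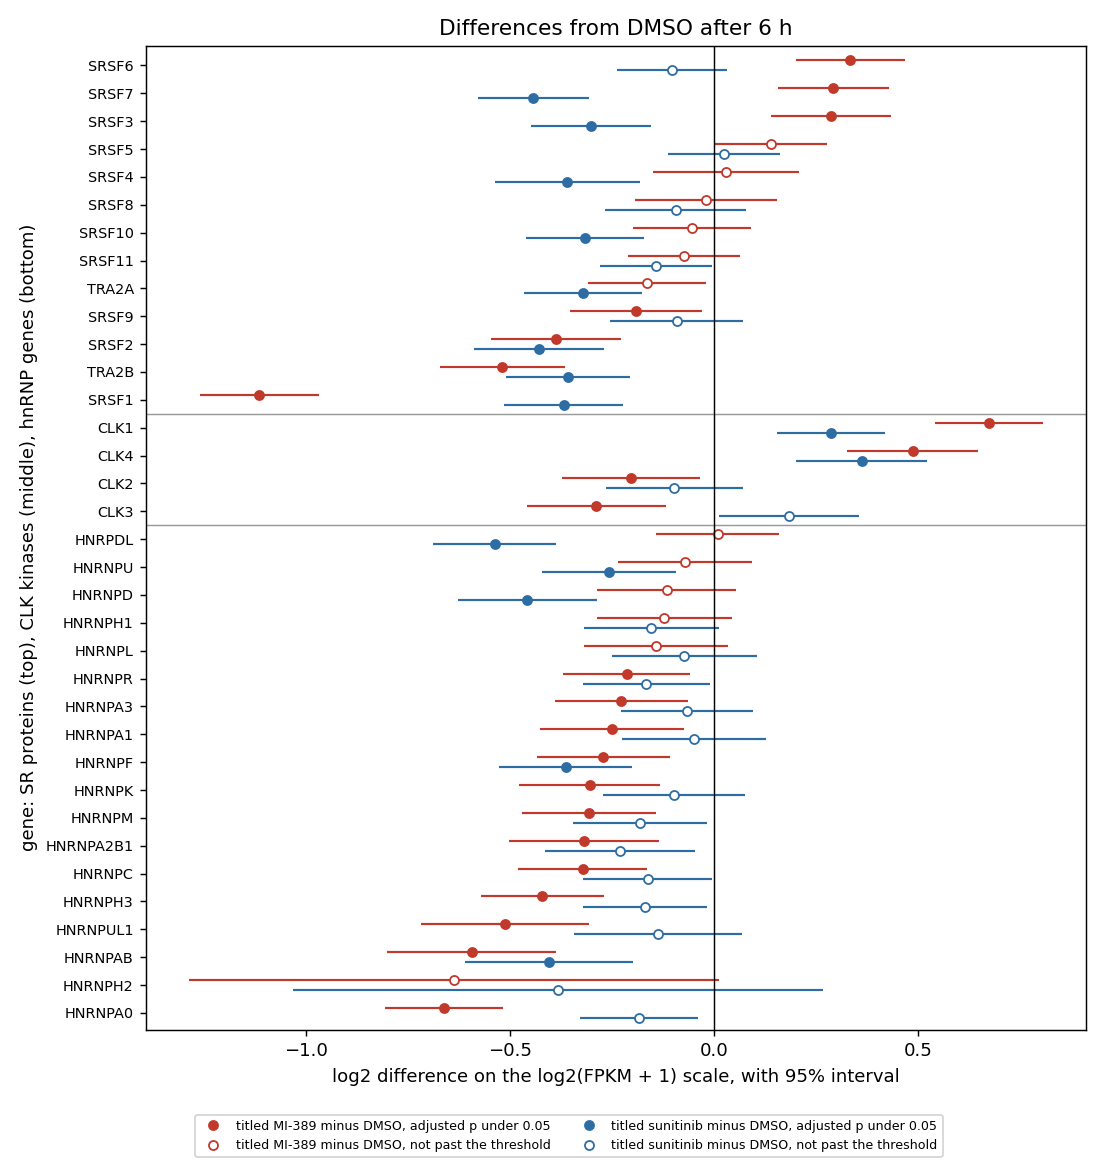
Log2 difference from DMSO on the log2(FPKM + 1) scale for each gene, with 95% intervals; red is the libraries titled MI-389, blue those titled sunitinib, and filled points passed an adjusted p under 0.05. SRSF1 lies at −1.11 (titled MI-389) and −0.37 (titled sunitinib), and CLK1 at 0.67 (titled MI-389) and 0.29 (titled sunitinib); both sets of points share the 3 DMSO libraries, and 12 of the 18 hnRNP points for the libraries titled MI-389 turn from below to above 0 under cyclic loess.

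In the libraries titled sunitinib, CLK1 and CLK4 rose against DMSO, and 8 SR protein genes and 5 hnRNP genes fell. By limma 0 SR protein genes and 0 hnRNP genes were called higher, and 0 of either were higher at an unadjusted p under 0.05; under quantile normalization and under cyclic loess 1 of each was called higher. Over all tested genes 2.37% were called higher and 16.9% lower; among genes of at least 100 FPKM these shares were 1.21% and 23.1%. The 2 of 35 genes called higher and the 13 of 35 called lower are larger shares than these, a difference that was not tested. By family, the 8 of 13 SR protein genes called lower are a larger share, while the 5 of 18 hnRNP genes are near that of abundant genes. The median difference of the 35 genes was −0.17, against −0.12 for the abundant genes and −0.10 for all tested genes. Libraries did not overlap between the groups for 17 of the 35 genes, for 4329 of 12301 tested genes and for 689 of 1979 abundant genes. Both comparisons with DMSO use the same 3 DMSO libraries, so they are given side by side and not set against each other. Without DMSO replicate 1, 2 of the 35 genes were called higher and 29 lower, 11 of them SR protein genes, 1 a CLK gene and 17 hnRNP genes, against 2.39% higher and 32.1% lower over all tested genes and 1.52% and 70.9% of abundant genes. Without sunitinib-titled replicate 2, 5 SR protein genes were called lower, and 3 hnRNP genes were called lower without sunitinib-titled replicate 1 or 3 or without DMSO replicate 2 or 3. Of the 12301 tested genes, 806 were called lower without sunitinib-titled replicate 2. Without sunitinib-titled replicate 1 or 3 or DMSO replicate 2 or 3, 872 to 1404 were called lower.

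CLK4 rose by 0.36 ± 0.072 in the libraries titled sunitinib against DMSO (adjusted p = 0.0102) and CLK1 by 0.29 ± 0.059 (adjusted p = 0.0111). The CLK1 call was lost without sunitinib-titled replicate 2, at an adjusted p of 0.0543. CLK3 differed by 0.18 ± 0.076 (adjusted p = 0.119) and CLK2 by −0.10 ± 0.075 (adjusted p = 0.394), neither past the threshold. CLK3 was called higher there under median centring, quantile normalization and cyclic loess. Of the SR proteins, SRSF7 fell by 0.44 ± 0.060 (adjusted p = 0.00298) and SRSF1 by 0.37 ± 0.065 (adjusted p = 0.00686). SRSF2, the speckle protein also called SC35, had 676, 644 and 662 FPKM in the libraries titled MI-389, 649, 644 and 634 FPKM in those titled sunitinib, and 771, 906 and 926 FPKM in DMSO. Both treated groups lay below DMSO, and SRSF2 fell by 0.43 ± 0.071 in the libraries titled sunitinib (adjusted p = 0.00537). The other SR protein genes called lower were SRSF3, SRSF4, SRSF10, TRA2A and TRA2B, by 0.30 to 0.36. SRSF5, SRSF6, SRSF8, SRSF9 and SRSF11 were not called, with differences between −0.14 and 0.03.

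A pair of hnRNP genes that both lie on chromosome 4 fell furthest in the libraries titled sunitinib. HNRNPD, known as AUF1, binds AU-rich elements and acts on messenger RNA decay, and HNRPDL is its close relative. HNRPDL had 344, 334 and 349 FPKM in the libraries titled MI-389, 232, 239 and 231 FPKM in those titled sunitinib, and 305, 353 and 364 FPKM in DMSO. HNRNPD had 920.2, 899 and 958 FPKM in the libraries titled MI-389, 735, 737 and 718 FPKM in those titled sunitinib, and 886, 1053 and 1081 FPKM in DMSO. For both genes the libraries titled sunitinib were the lowest of the series, while those titled MI-389 overlapped DMSO. HNRPDL fell by 0.54 ± 0.067 (adjusted p = 0.00218) and HNRNPD by 0.46 ± 0.076 (adjusted p = 0.00538) in the libraries titled sunitinib against DMSO. HNRNPAB fell by 0.40 ± 0.092 (adjusted p = 0.0166). HNRNPF and HNRNPU were called lower by 0.36 and 0.26, and HNRNPU overlaps COX20 on the opposite strand. The HNRNPF call held under all 17 alternatives, that of HNRNPAB under 11 and that of HNRNPU under 9. The other 13 hnRNP genes were not called, with differences between −0.38 and −0.05.

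Between the treated groups, 8 of the 35 genes were higher and 6 lower in the libraries titled MI-389 than in those titled sunitinib. The 8 were SRSF7, SRSF3, SRSF6, SRSF4, SRSF10, CLK1, HNRPDL and HNRNPD. The 6 were SRSF1, HNRNPA0, CLK3, HNRNPUL1, HNRNPH3 and HNRNPK. Over all tested genes 36.0% were called higher and 20.3% lower, and among genes of at least 100 FPKM these shares were 19.5% and 38.0%. The 8 of 35 called higher lie between the shares of abundant and of all tested genes, and the 6 of 35 called lower are a smaller share than either. The median difference was −0.05 for the 35 genes, −0.11 for the abundant genes and 0.08 for all tested genes. Libraries did not overlap between the groups for 27 of the 35 genes, for 8542 of 12301 tested genes and for 1564 of 1979 abundant genes. The DMSO libraries do not enter these differences. They do enter the errors and p-values, because the model estimates the spread from all groups together. In the 6 treated libraries alone, 12 of the 35 genes were called higher and 15 lower, against 39.8% and 24.2% of all tested genes. Of abundant genes, 25.7% were then called higher and 49.9% lower.

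SRSF7 was higher in the libraries titled MI-389 than in those titled sunitinib by 0.74 ± 0.060 (adjusted p = 9.17e-06), SRSF3 by 0.59 ± 0.066 (adjusted p = 5.51e-05) and SRSF6 by 0.44 ± 0.060 (adjusted p = 0.000204). SRSF4, a long SR protein, had 168, 148 and 163 FPKM in the libraries titled MI-389, 122, 117 and 126 FPKM in those titled sunitinib, and 140.3, 157 and 172 FPKM in DMSO. The treated groups did not overlap, with a difference of 0.39 ± 0.080 (adjusted p = 0.00237). HNRPDL was higher by 0.55 ± 0.067 (adjusted p = 0.000101) and CLK1 by 0.39 ± 0.059 (adjusted p = 0.000385). SRSF1 was lower by a difference of −0.75 ± 0.065 (adjusted p = 1.33e-05), HNRNPA0 by −0.48 ± 0.064 (adjusted p = 0.000179) and CLK3 by −0.47 ± 0.076 (adjusted p = 0.000564). CLK2 differed by −0.11 ± 0.075 (adjusted p = 0.258; 95% interval −0.27 to 0.06) and CLK4 by 0.13 ± 0.072 (adjusted p = 0.165; 95% interval −0.04 to 0.29), and neither passed the threshold. HNRNPUL1 differed by −0.38 ± 0.092 (adjusted p = 0.00631) and HNRNPH3 by −0.25 ± 0.068 (adjusted p = 0.0101). HNRNPK, a KH-domain protein that binds cytosine-rich RNA, had 736, 724 and 757 FPKM in the libraries titled MI-389, 871, 850.0 and 839 FPKM in those titled sunitinib, and 803, 950.3 and 997 FPKM in DMSO. Its difference between the treated groups was −0.21 ± 0.077 (adjusted p = 0.0435), a call lost under 10 of 17 alternatives, among them leaving out any 1 of the 6 treated libraries. Over all 3 comparisons on the deposited scale, SRSF5, SRSF8, SRSF11, HNRNPH1, HNRNPH2 and HNRNPL were called in none.

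The scaling between libraries set how many of these genes counted as lower. The spike-in RNAs, added by cell number, were level across the deposited libraries, with library medians between −0.04 and 0.06 on the log2 scale. Rescaling to them therefore stayed close to the deposited scale and is no separate check of it. It gave 6 genes higher and 19 lower in the libraries titled MI-389 against DMSO, beside 28.1% and 27.8% of all tested genes. Centring each library on its median gave 5 higher and 26 lower, quantile normalization 14 and 13, and cyclic loess 17 and 9. Of all tested genes, median centring called 26.2% higher and 40.3% lower, quantile normalization 30.2% and 35.7%, and cyclic loess 33.3% and 32.4%. Of abundant genes these were 10.2% and 70.0%, 30.0% and 43.1%, and 37.2% and 36.1%. The hnRNP median moved from −0.29 as deposited to −0.37 with median centring, −0.05 with quantile normalization and 0.03 with cyclic loess. In the libraries titled sunitinib against DMSO, 8 of 13 SR protein genes were called lower under each of the 4 other scalings too, with 1 called higher under quantile normalization and cyclic loess. Of these scalings, spike-in rescaling is nearly the deposited scale. Of the 12301 tested genes, 1866 were called lower there with median centring, 1981 with quantile normalization and 1962 with cyclic loess, against 2079 as deposited. Between the treated groups, the median of all genes moved from 0.08 as deposited to −0.08 with median centring, and SR protein genes went to 5 higher and 5 lower, against 5 and 1 as deposited. Quantile normalization and cyclic loess each gave 9 SR protein genes higher and 2 lower between the treated groups. The hnRNP genes there were 2 higher and 4 lower as deposited, 2 and 12 with median centring, 5 and 5 with quantile normalization, and 11 and 3 with cyclic loess. Of all tested genes there, median centring called 26.7% higher and 39.5% lower. These shares were 30.8% and 36.0% with quantile normalization and 33.1% and 32.8% with cyclic loess. Over all tested genes, median centring turned the split of calls to 3222 higher and 4956 lower in the libraries titled MI-389 against DMSO (3502 and 3477 as deposited), to 1270 and 1866 in those titled sunitinib against DMSO (291 and 2079), and to 3279 and 4863 between the treated groups (4427 and 2500). The calls held under all 17 alternatives were SRSF3, SRSF6, SRSF7, CLK1 and CLK4 among genes higher in the libraries titled MI-389 than in DMSO. Among the 18 genes called lower there, SRSF1, SRSF2, TRA2B, CLK3, HNRNPA0, HNRNPAB, HNRNPH3 and HNRNPUL1 held. For the libraries titled sunitinib against DMSO, the calls of CLK4, SRSF1, SRSF2, SRSF7, TRA2A, TRA2B, HNRNPD, HNRPDL and HNRNPF held under all 17, and between the treated groups every call but that of HNRNPK did.

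**Figure D4:**
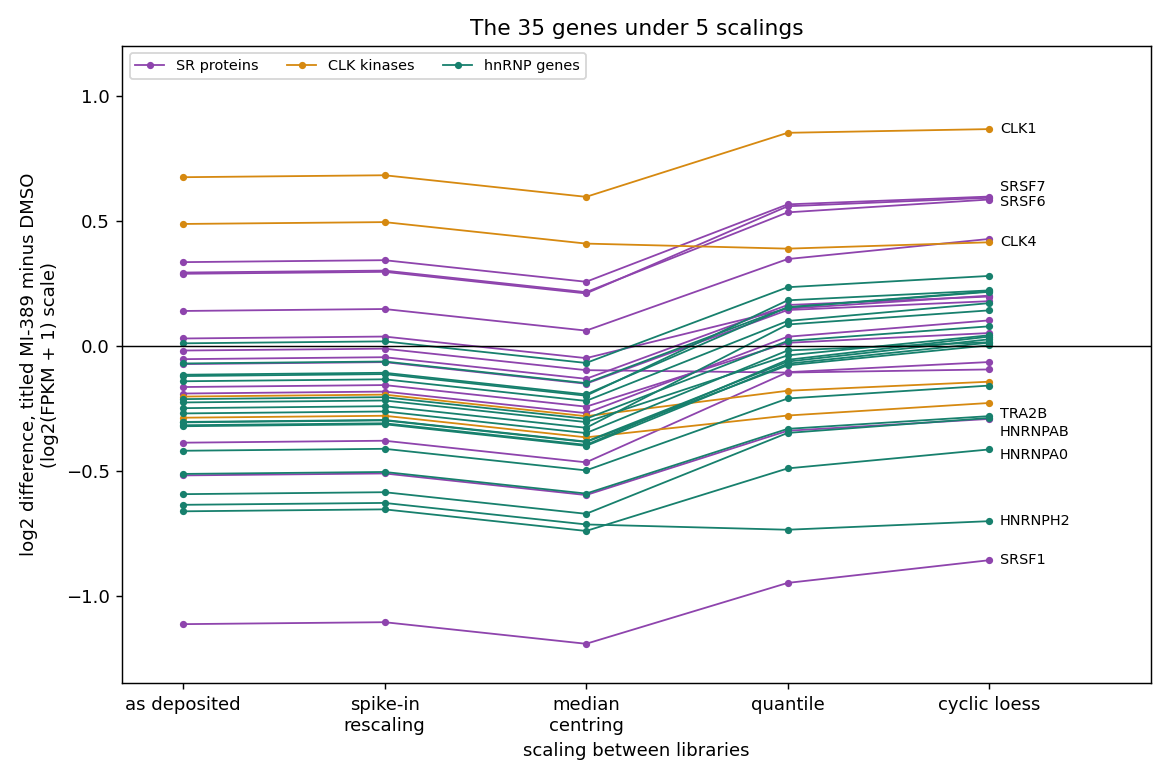
Log2 difference of the libraries titled MI-389 from DMSO for each of the 35 genes under the deposited scaling and 4 others; each line is 1 gene, coloured by family. CLK1, CLK4, SRSF6 and SRSF7 stay above 0 and SRSF1 stays below −0.8 throughout, while 12 of 18 hnRNP lines turn from below to above 0 under cyclic loess and 6 of 18 under quantile normalization.

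Other splicing genes were read from 7 lists in the same fit, to be set beside the 28.5% of all tested genes called higher and 28.3% called lower, and the 11.0% and 53.7% of abundant genes. Of 29 tested SR-related and RS-domain genes, 11 were higher and 1 lower in the libraries titled MI-389 against DMSO. CCNL1, a cyclin partner of CDK11 in nuclear speckles, averaged 234 ± 11.3 FPKM in the libraries titled MI-389 and 100.01 ± 9.81 FPKM in DMSO (adjusted p = 1.43e-06). RSRC2 averaged 276 ± 5.68 FPKM in the libraries titled MI-389 and 148 ± 6.60 FPKM in DMSO (adjusted p = 8.39e-07). The complex around PRPF19, which activates the spliceosome, had 7 of 11 genes higher and 1 lower, with PLRG1 at 83.6 ± 1.55 FPKM in the libraries titled MI-389 and 57.4 ± 2.82 FPKM in DMSO. Of 25 U1, U2 and Sm genes 16 were lower and 0 higher by limma (1 higher at an unadjusted p under 0.05). PHF5A, a subunit of SF3b, averaged 102 ± 3.14 FPKM in the libraries titled MI-389 and 235 ± 30.1 FPKM in DMSO (adjusted p = 4e-06), and the Sm gene SNRPG averaged 491 ± 2.88 FPKM in the libraries titled MI-389 and 888 ± 90.1 FPKM in DMSO. Of 21 tri-snRNP genes 3 were higher and 13 lower, and of 9 exon junction complex genes 1 was higher (CASC3) and 4 were lower. Among 16 SR protein kinases, phosphatases and carriers 2 were higher, CDK12 and DYRK1A, and 5 lower, among them the phosphatase subunit PPP1CB. Among 30 further hnRNP genes and splicing regulators 5 were higher, led by RBM5 at 153 ± 4.92 FPKM in the libraries titled MI-389 and 87.4 ± 5.18 FPKM in DMSO, and 9 were lower, among them ELAVL1, the stabilizer of AU-rich messenger RNAs also known as HuR. Without DMSO replicate 1, the lists had 11 genes higher and 4 lower (SR-related), 7 and 2 (PRPF19 complex), 0 and 20 (U1, U2 and Sm), 3 and 13 (tri-snRNP), 1 and 5 (exon junction complex), 2 and 7 (kinases, phosphatases and carriers) and 5 and 17 (further hnRNP genes and regulators). Cyclic loess gave 22 higher and 1 lower for the SR-related list, 7 and 11 for U1, U2 and Sm genes and 15 and 9 for further hnRNP genes and regulators, while median centring gave 11 and 7, 1 and 18, and 4 and 19 for the same lists. Of all tested genes, cyclic loess called 33.3% higher and 32.4% lower, and median centring 26.2% and 40.3%. Of abundant genes these were 37.2% and 36.1%, and 10.2% and 70.0%.

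The same lists in the libraries titled sunitinib against DMSO, where 2.37% of all tested genes were higher and 16.9% lower (1.21% and 23.1% of abundant genes), held 1 gene higher and 10 lower (further hnRNP genes and regulators), 0 and 11 (SR-related), 1 and 3 (kinases, phosphatases and carriers), 0 and 7 (U1, U2 and Sm), 0 and 4 (tri-snRNP), 0 and 2 (PRPF19 complex) and 0 and 5 (exon junction complex). The tri-snRNP list (4 of 21 lower) and the PRPF19 complex (2 of 11 lower) lay near these shares of lower genes. At an unadjusted p under 0.05, 1 gene of the PRPF19 complex was higher there and 0 genes of the SR-related, U1, U2 and Sm, tri-snRNP and exon junction complex lists. Without DMSO replicate 1, the numbers called lower there were 22 of 30 (further hnRNP genes and regulators), 22 of 29 (SR-related), 10 of 16 (kinases, phosphatases and carriers), 24 of 25 (U1, U2 and Sm), 15 of 21 (tri-snRNP), 5 of 11 (PRPF19 complex) and 9 of 9 (exon junction complex), against 32.1% of all tested genes and 70.9% of abundant genes. RSRC2 was lower in the libraries titled sunitinib, at 120.3 ± 0.745 FPKM in the libraries titled sunitinib and 148 ± 6.60 FPKM in DMSO (adjusted p = 0.00492). Between the treated groups, where 36.0% of all tested genes were higher and 20.3% lower (19.5% and 38.0% of abundant genes), 19 of the 29 SR-related genes were higher and 2 lower in the libraries titled MI-389, and 12 of the 25 U1, U2 and Sm genes were lower and 3 higher. RSRC2 differed by 1.19 ± 0.05 on the log2 scale between the treated groups (adjusted p = 1.43e-07). The remaining counts between the treated groups, higher and lower in the libraries titled MI-389, were 10 and 3 (further hnRNP genes and regulators), 5 and 4 (kinases, phosphatases and carriers), 5 and 6 (tri-snRNP), 6 and 1 (PRPF19 complex) and 3 and 1 (exon junction complex). These counts also moved with the scaling. Median centring gave 6 and 13 for further hnRNP genes and regulators, 3 and 4 for the exon junction complex and 15 and 2 for the SR-related list. Cyclic loess gave 17 and 5, 5 and 1, and 24 and 2 for the same lists. Of all tested genes there, median centring called 26.7% higher and 39.5% lower, and cyclic loess 33.1% and 32.8%.

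**Figure D5:**
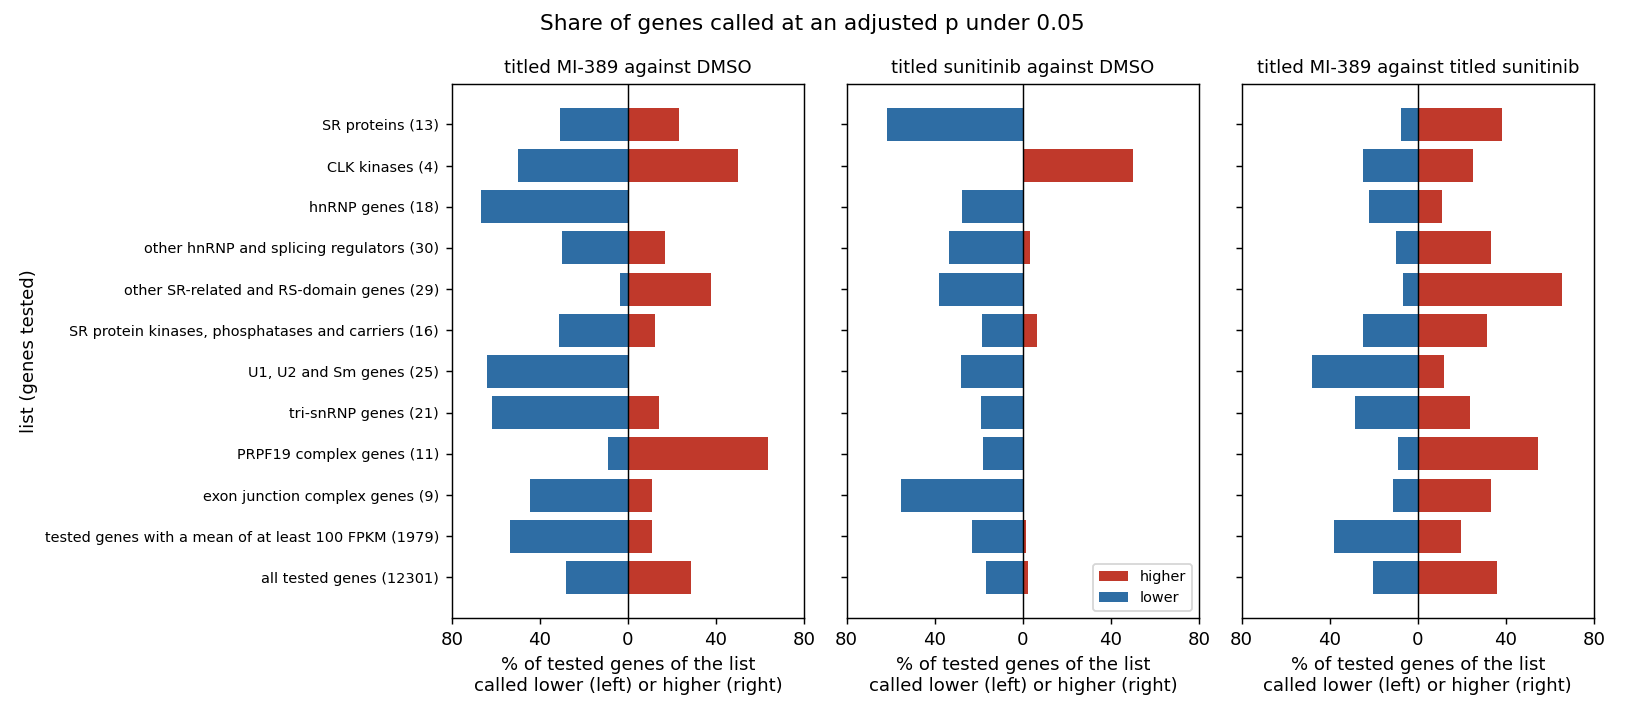
Percentage of tested genes called higher (right, red) or lower (left, blue) in each list and each comparison, with all tested genes and genes of at least 100 FPKM as background; numbers of genes tested are in brackets. In the libraries titled MI-389 against DMSO, hnRNP genes (12 of 18) and U1, U2 and Sm genes (16 of 25) are mostly lower on the deposited scale, near the 53.7% of abundant genes, and the hnRNP genes turn to 7 higher and 4 lower under cyclic loess. Cyclic loess called 37.2% of abundant genes higher and 36.1% lower.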

How the data were processed

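PolyA RNA of 9 MOLT4 libraries was isolated with a miRvana kit, spiked with ERCC RNA by cell number and made into libraries with a SMARTer v4 kit, per the labels' protocols. The submitters' processing notes name HISAT, Cufflinks 2.0.0 and hg19. Which annotation and which normalization were applied is not given in the sources used here. As deposited, the values are FPKM of the authors per gene symbol, in 23713 rows with 92 spike-in rows; depth per library cannot be read from them, and precision comes from the spread of 3 libraries per group. No column was left unmapped.

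The test was limma (version 3.58.1, R version 4.3.3) on log2(FPKM + 1) for the 12301 genes that averaged 1 FPKM or more. It was two-sided, with a variance trend, 1 model of 3 groups for the 9 libraries, and p-values adjusted over all these genes by Benjamini-Hochberg. The model was also run on simulated data with known changes and independent noise for each gene. Those data lack a shift shared by many genes, such as that of DMSO replicate 1, so they do not test its effect. Fold changes are ratios of mean FPKM; log2 differences understate changes of low genes. The members and lists were chosen with earlier results of these data known. Statistics are given for the CLK kinases and, per comparison, up to 6 rises and 6 falls among called members whose libraries do not overlap, and up to 3 genes per list. Alternatives were other pseudocounts, filters, scalings and model terms, the 6 compared libraries alone, and each library left out in turn. Figures were drawn with matplotlib 3.10.9.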

Additional observations from a re-analysis of the deposited data

How the results depend on the processing

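Over the 35 genes, 3 comparisons and 17 alternatives each, 1581 of 1785 values kept their call or lack of one, 78 lost a call, 123 gained one and 3 were called the opposite way (SRSF9, HNRNPA1 and HNRNPR in the libraries titled MI-389 against DMSO, under cyclic loess). The sign turned in 79 of these values, 71 of them under another scaling. Of the counts of calls, 133 stayed within 1.5 times and 20 did not. In the libraries titled MI-389 against DMSO, members called higher were 14 with quantile normalization and 17 with cyclic loess, and members called lower were 9 with cyclic loess. Of all tested genes, 30.2% and 33.3% were called higher there, and 32.4% were called lower with cyclic loess. Between the treated groups, members called higher were 15 and 21 with quantile normalization and cyclic loess, and members called lower were 19 with median centring and 15 in the 6 compared libraries alone. Of all tested genes, 30.8% and 33.1% were called higher there. Called lower were 39.5% with median centring and 24.2% in the 6 compared libraries alone. In the libraries titled sunitinib against DMSO, members called higher were 5 with quantile normalization and 5 with cyclic loess, and ranged from 1 to 2 with a library left out. Members called lower ranged from 9 (without sunitinib-titled replicate 2) to 29 (without DMSO replicate 1). Of the 12301 tested genes, 1696 and 1852 were called higher with quantile normalization and cyclic loess. Called lower were 806 without sunitinib-titled replicate 2 and 3950 without DMSO replicate 1. Genes called there were 1423 without a filter, 3677 with quantile normalization, 3814 with cyclic loess and 1225 in the 6 libraries, and 929 (without sunitinib-titled replicate 2) to 4244 (without DMSO replicate 1) with a library left out, against 2370. Among the genes given with full statistics, the sign turned for CLK2 in the libraries titled sunitinib against DMSO (0.0188 with quantile normalization, 0.0226 with cyclic loess), and between the treated groups CLK4 (−0.0396 with median centring, −0.0662 with quantile normalization, −0.0417 with cyclic loess) and HNRNPK (0.00548 with cyclic loess). The cause was not tested. Same-numbered libraries deviated together with r from −0.04 to 0.11, above 0.1 in 1 of 9 pairs. Differently numbered libraries of different groups ran from −0.22 to 0.13. With 3 libraries per group these values cannot decide whether the numbers pair the samples, and the labels do not say. With a replicate block, members called were 5 higher and 16 lower (libraries titled MI-389 against DMSO, 6816 genes called), 2 higher and 12 lower (those titled sunitinib against DMSO, 1941 genes), and 8 higher and 5 lower (treated groups against each other, 6740 genes).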
